A study of Danio rerio with 10 samples.

Results

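Transcripts of 6 genes were followed in whole adult male zebrafish exposed to estrogen with and without an anti-estrogen. The genes aspm, birc5b, kif23, prc1a, anapc10 and plk3 were grouped under the mitotic spindle, cytokinesis and the exit from mitosis. The place of plk3 in this group is uncertain, as described below. All 6 were taken by their symbol in the annotation of the array. This gave 8 of the 16416 oligonucleotide probes, with 2 probes each for aspm and kif23. A further probe that is annotated to both aspm and hnrnpub was left out. The 3 groups of fish were kept for 96 hours. The E2+ICI group received 10 nM 17β-estradiol (E2) together with 1 µM ICI 182,780, a pure estrogen receptor antagonist. The E2 group received 10 nM E2 alone, and the control group received 0.01% ethanol, the solvent that the medium of all groups held. The titles of the treated samples give the E2 dose as 10 mM, whereas the treatment protocol gives 10 nM, which was used here. RNA of 1 individual fish was hybridised on each array, with 3 E2+ICI, 3 E2 and 4 control fish, against a common reference RNA. The study describes this reference as equal parts of male and female RNA from pooled liver. Of 4 replicates kept for each treatment, only arrays judged good were used, so fewer remained for the treated groups.

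Mitosis is driven by cyclin B and its kinase and ends when the anaphase promoting complex, a ubiquitin ligase, marks cyclin B and securin for destruction. Microtubule-organizing proteins focus the poles of the spindle, the chromosomal passenger complex corrects attachments at the centromere, and a bundled central spindle then positions the cleavage furrow. Transcripts of such genes are found in dividing somatic cells, and they are also stored in growing oocytes and present in dividing germ cells. Since whole fish were measured, fewer cells of a type and less RNA per cell cannot be told apart in any of the values.

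Values are log2 ratios of the fish to the reference RNA after Lowess normalization, so that 1 unit is a 2-fold difference. Neither the methods nor the tables state which dye is the numerator. Fish over reference is the likely direction, because of vtg3, a yolk precursor gene of the estrogen-exposed liver. It ran from -0.39 to 0.01 in E2+ICI, from 0.77 to 2.01 in E2 and from -6.96 to -5.64 in control fish. The study also writes of fold change above reference RNA, but in its account of quantitative PCR of vtg1 and vtg3. With this direction, the medians of 12 skeletal muscle probes lay below the reference on every array. They ran from -0.28 to -0.03 in E2+ICI, from -0.45 to -0.26 in E2 and from -1.47 to -0.29 in control fish. The make-up of the reference RNA was not tested. The arrays differed in spread, with SDs over all probes of 0.373 to 0.561 in E2+ICI, 0.461 to 0.514 in E2 and 0.796 to 1.07 in control arrays, and 196 to 912 probes lacked a value on an array. All 8 probes had a value on all 10 arrays. The groups were tested against each other in a limma model of all 10 arrays and 16208 probes, in which a probe was called at a Benjamini-Hochberg adjusted p under 0.05.

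In E2 fish, 7 of the 8 probes, which cover all 6 genes, were higher than in control fish, by 3.53-fold (plk3) to 97.8-fold (one probe of aspm). The largest folds rest on very low control ratios, and without intensities it is not known how near background these were. Over all tested probes, 19.2% were called higher in this comparison, and in 22% all E2 arrays lay above all control arrays, as they did for the same 7 member probes. In E2+ICI fish the same 7 probes were again higher than in control fish, by 1.86-fold to 31.7-fold, where 8.92% of all probes were called higher and 15.5% had all E2+ICI arrays above all control arrays. The mean of the E2+ICI fish was below that of the E2 fish for each of these 7 probes. In 6 of them all E2+ICI arrays lay below all E2 arrays, as did those of 19.9% of all probes, but only anapc10 and plk3 passed the test of this difference, where 2.54% of all probes were called lower. Both comparisons with control use the same control arrays, so they are not separate evidence. The members were chosen with earlier results of these arrays known, so these counts describe the members and are no test of them.

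**Figure D1:**
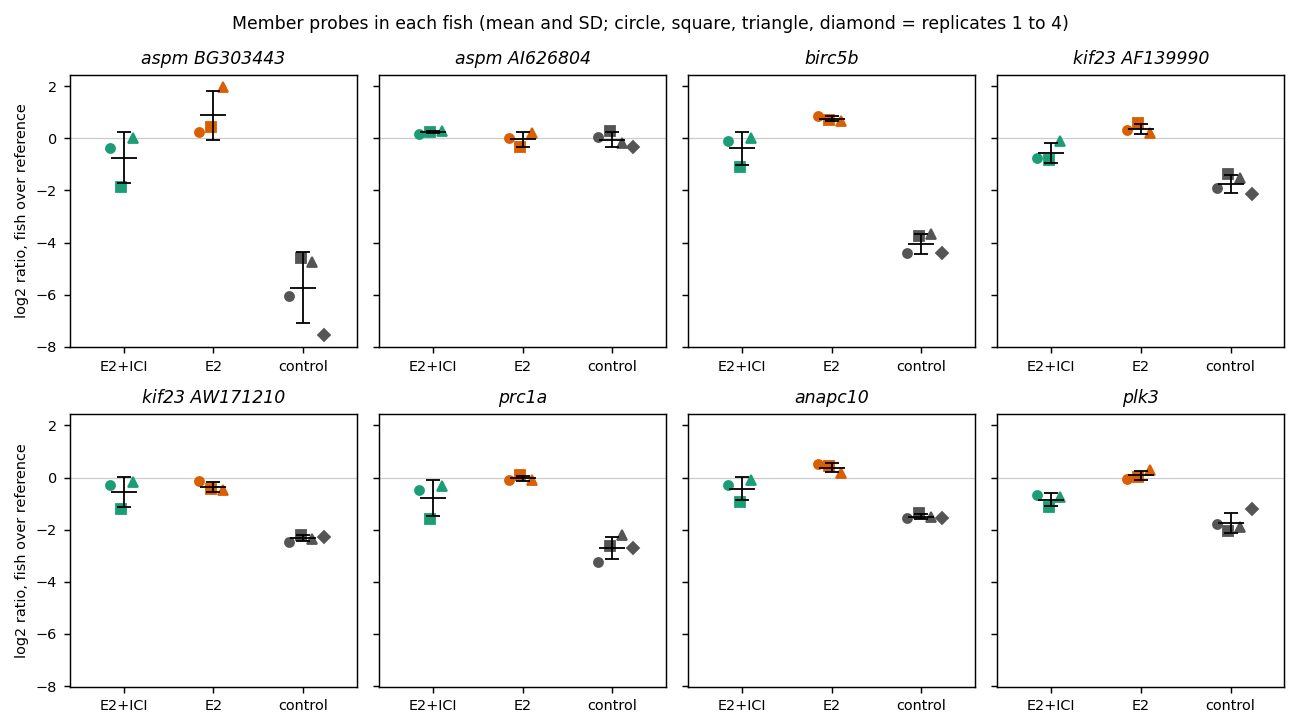
Log2 ratio of fish over reference RNA for the 8 member probes in each fish, with E2+ICI, E2 and control fish from left to right. Marker shapes give the replicate and bars the mean ± SD (n = 3, 3 and 4). In 7 panels every E2+ICI and E2 fish lies above every control fish, whereas the groups overlap for aspm AI626804.

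The aspm gene encodes a microtubule-binding protein of the spindle poles. Its probe with the GenBank accession BG303443 read -0.38, -1.86 and 0.01 in E2+ICI fish, 0.23, 0.44 and 1.97 in E2 fish and -6.04, -4.61, -4.73 and -7.55 in control fish. The treated fish thus lay far above the control fish, with no overlap, and the control fish themselves spread over almost 3 log2 units. Only 20 of the 16208 probes had a lower control mean than this probe (-5.73), so the size of its fold change is uncertain. The log2 fold change was 6.61 for E2 against control (95% interval 5.05 to 8.17, SE 0.71, adjusted p = 4.31e-05) and only 14 of the 16208 probes had a larger one. The E2+ICI fish stood above the control fish by 4.99 (95% interval 3.43 to 6.55, adjusted p = 0.000927), and by 2.63 with quantile normalization (adjusted p = 0.0394) or 3.26 with arrays scaled to equal spread (adjusted p = 0.00322). The values 0.23 of E2 replicate 1 and 0.01 of E2+ICI replicate 3 are the most frequently repeated values of those arrays, and the log2 ratio before Lowess was 0.00 in both. With repeated values set to missing the log2 fold changes were 6.94 (adjusted p = 0.000182) and 4.61 (adjusted p = 0.00605).

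The other aspm probe, AI626804, gave a different picture. It read 0.18, 0.25 and 0.29 in E2+ICI fish, -0.00, -0.35 and 0.22 in E2 fish and 0.05, 0.29, -0.20 and -0.34 in control fish, so that the 3 groups overlapped. Its log2 fold change was 0.01 for E2 against control (95% interval -0.40 to 0.42, adjusted p = 0.981) and 0.29 for E2+ICI against control (95% interval -0.12 to 0.70, adjusted p = 0.357). To compare the probes, the difference between them was taken within each array. The change recorded by BG303443 exceeded that of AI626804 by 6.61 for E2 against control and by 4.69 for E2+ICI against control, each with p = 0.0286 in a two-sided exact permutation test over the fish, the smallest p that 3 against 4 fish allow. After adjustment over the 6 tests of this kind both had p = 0.0857 (exact permutation test). Tests at this smallest p could pass the adjustment only if both kif23 tests against control also reached it. With quantile normalization and with equal spread the probes differed by 2.31 and 2.96 in the E2+ICI change. The difference was -1.91 in the change of E2+ICI against E2 (exact permutation p = 0.1, the smallest for 3 against 3 fish). Across the 10 arrays the aspm probes correlated with r = 0.34. Among the 21 pairs of the 7 probes other than AI626804, which include BG303443, r was 0.841 to 0.981. These values are a description over arrays that share a design of 3 groups. No sequence of either probe was analysed here, and both carry the same gene symbol.

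The kif23 gene encodes a kinesin motor of the centralspindlin complex, which bundles the microtubules of the central spindle before the cell divides. Probe AF139990 read -0.75, -0.83 and -0.12 in E2+ICI fish, 0.31, 0.57 and 0.20 in E2 fish and -1.91, -1.38, -1.54 and -2.14 in control fish. Probe AW171210 read -0.28, -1.20 and -0.16 in E2+ICI fish, -0.13, -0.43 and -0.48 in E2 fish and -2.46, -2.19, -2.37 and -2.27 in control fish. Both probes placed all treated fish above all control fish, but the E2+ICI and E2 fish separated in AF139990 and overlapped in AW171210. The log2 fold changes for E2 against control were 2.1 (SE 0.23, adjusted p = 4.69e-05) for AF139990 and 1.97 (SE 0.23, adjusted p = 7.77e-05) for AW171210. The probes differed by 0.13 in this change (exact permutation p = 0.657, two-sided). Their changes for E2+ICI against control were 1.18 (adjusted p = 0.00653) and 1.77 (adjusted p = 0.000527), a difference of -0.59 (exact permutation p = 0.114). Their changes for E2+ICI against E2 were -0.93 (95% interval -1.46 to -0.39, adjusted p = 0.0519) and -0.20 (95% interval -0.75 to 0.34, adjusted p = 0.664), a difference of -0.72 (exact permutation p = 0.1, the smallest possible). With quantile normalization and with equal spread they differed by 0.57 and 0.45 in the change of E2 against control, and with quantile normalization by -1.09 in that of E2+ICI against E2. None of the 3 differences between the kif23 probes passed, with adjusted p = 0.137 to 0.657 in the exact permutation test. With so few fish the test of E2+ICI against E2 could not pass. Even the aspm differences from control, at the smallest possible p, could not pass the adjustment beside these kif23 results. The result therefore does not show that the kif23 probes agree.

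**Figure D2:**
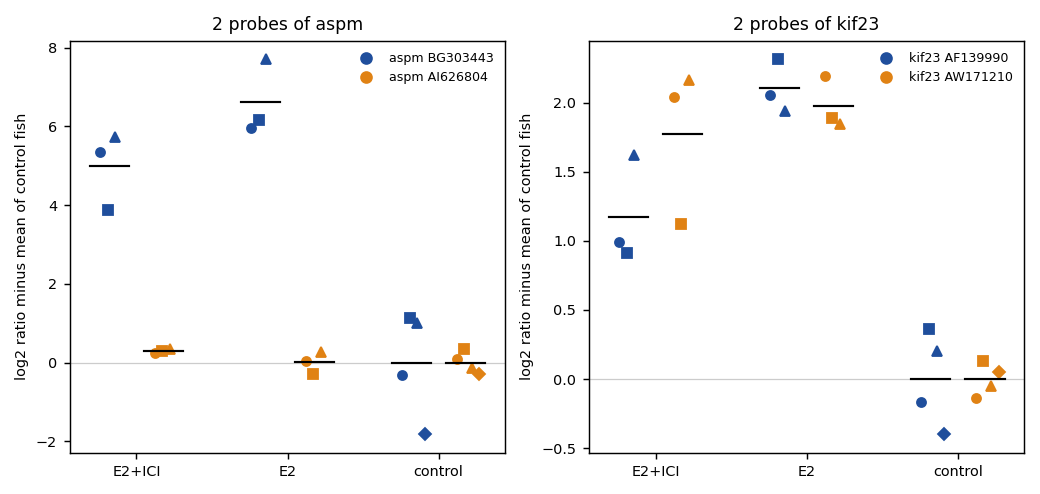
Log2 ratio of each fish minus the mean of the control fish of that probe, for the 2 probes of aspm (left) and of kif23 (right), in E2+ICI, E2 and control fish. Lines are group means and marker shapes the replicates. The aspm probes part by 6.61 in E2 fish and by 4.69 in E2+ICI fish, and the kif23 probes by 0.13 in E2 fish and by -0.59 in E2+ICI fish.

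The prc1a gene encodes a protein that cross-links antiparallel microtubules in the midzone of the spindle. Its probe read -0.48, -1.57 and -0.31 in E2+ICI fish, -0.09, 0.08 and -0.08 in E2 fish and -3.22, -2.64, -2.19 and -2.71 in control fish. The 3 E2 fish lay within 0.2 of each other, the E2+ICI fish lay below them, and E2+ICI replicate 2 was the treated fish closest to the control fish. The log2 fold change was 2.66 for E2 against control (SE 0.30, adjusted p = 6.35e-05) and 1.90 for E2+ICI against control (SE 0.30, adjusted p = 0.0019). The E2+ICI and E2 fish differed by -0.75 (95% interval -1.46 to -0.04, adjusted p = 0.182).

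The birc5b gene is one of the zebrafish survivin genes. Survivin is the subunit that brings the chromosomal passenger complex to the centromere, and it also inhibits apoptosis in mammalian cells. Its probe read -0.09, -1.10 and 0.03 in E2+ICI fish, 0.85, 0.72 and 0.66 in E2 fish and -4.39, -3.76, -3.69 and -4.42 in control fish. The 3 groups did not overlap, and the E2 fish were the most alike. The log2 fold change was 4.81 for E2 against control (28.0-fold, SE 0.28, adjusted p = 8.37e-07) and 3.68 for E2+ICI against control (12.8-fold, SE 0.28, adjusted p = 1.68e-05). Between E2+ICI and E2 fish it was -1.13 (95% interval -1.79 to -0.47, adjusted p = 0.0537). The paralog birc5a, another survivin gene, averaged -0.38 ± 0.14 in E2+ICI, 0.31 ± 0.04 in E2 and -1.58 ± 0.17 in control fish (SD, n = 3, 3 and 4). It rose by 1.90 for E2 against control (adjusted p = 3.48e-06) and by 1.21 for E2+ICI against control (adjusted p = 0.000273), and between E2+ICI and E2 fish its log2 fold change was -0.69 (adjusted p = 0.0297).

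The anapc10 gene encodes a subunit of the anaphase promoting complex that helps to bind its substrates. Its probe read -0.27, -0.93 and -0.09 in E2+ICI fish, 0.52, 0.43 and 0.19 in E2 fish and -1.56, -1.37, -1.52 and -1.56 in control fish. The groups did not overlap, and the control fish lay within 0.2 of each other. The log2 fold change was 1.88 for E2 against control (SE 0.20, adjusted p = 3.59e-05) and 1.07 for E2+ICI against control (SE 0.20, adjusted p = 0.00463). Between E2+ICI and E2 fish it was -0.81 (95% interval -1.27 to -0.35, adjusted p = 0.0488).

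The plk3 gene encodes a polo-like kinase, a family of serine and threonine kinases whose mammalian member PLK3 is mostly known from stress responses and the G1 phase. In the study's table of human homologs the accession of this probe, BG303034, is paired with PLK2, so that the kinase it measures is uncertain. The probe read -0.68, -1.11 and -0.74 in E2+ICI fish, -0.05, 0.02 and 0.28 in E2 fish and -1.80, -2.06, -1.88 and -1.20 in control fish. The groups did not overlap, but E2+ICI replicate 2 at -1.11 came close to control replicate 4 at -1.20. The log2 fold change was 1.82 for E2 against control (SE 0.21, adjusted p = 7.16e-05), 0.89 for E2+ICI against control (SE 0.21, adjusted p = 0.0181) and, between E2+ICI and E2 fish, -0.93 (95% interval -1.42 to -0.43, adjusted p = 0.0395). Of the other polo-like kinases only plk4, which starts centriole duplication, had a probe with a symbol of its own. It averaged -0.31 ± 0.28 in E2+ICI, 0.09 ± 0.10 in E2 and -0.76 ± 0.28 in control fish (SD, n = 2, 3 and 4, with no value for E2+ICI replicate 2), with log2 fold changes of 0.45 for E2+ICI against control (adjusted p = 0.205) and 0.85 for E2 against control (adjusted p = 0.00517).

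**Figure D3:**
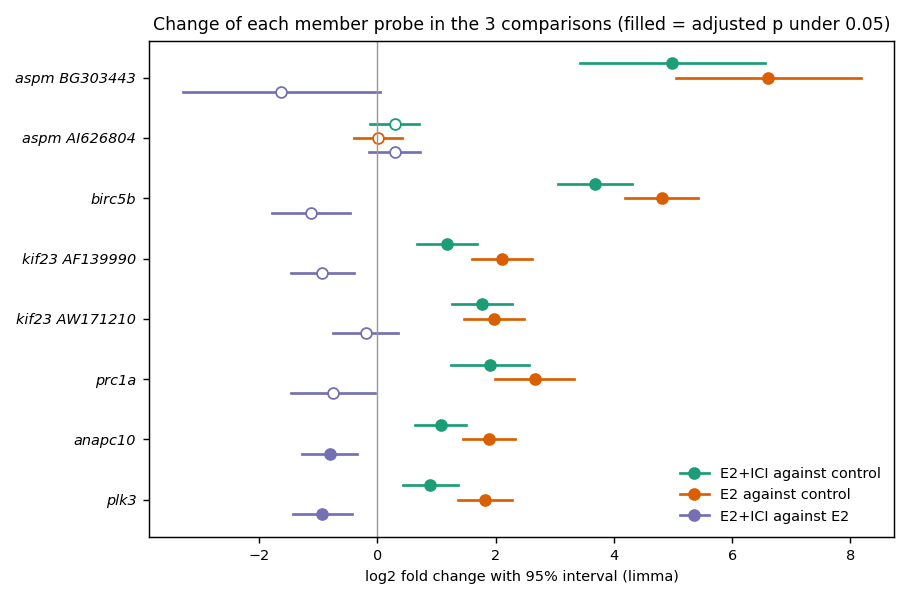
Log2 fold change (limma) of each member probe with its 95% interval for E2+ICI against control, E2 against control and E2+ICI against E2. Filled points have an adjusted p under 0.05. Changes for E2 against control run from 0.01 to 6.61, and for E2+ICI against E2 only anapc10 and plk3 are filled.

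The E2 rise of the 7 probes was called under all alternatives and without any single array, although its size moved with the scaling of the arrays. For birc5b the log2 fold change ran from 3.56 to 4.93 over these settings. It moved by more than 1.5 times for kif23 AW171210, at 1.10 with quantile normalization and 1.23 with equal spread, and for prc1a, at 1.76 with quantile normalization. The E2+ICI calls were less stable. With arrays brought to the same distribution (quantile normalization), only aspm BG303443 and birc5b of the 7 were still called against control, with birc5b at 2.17, and plk3 was then at -0.07 (adjusted p = 0.887). With arrays scaled to equal spread 4 were called, namely aspm BG303443, birc5b, kif23 AW171210 at 1.07 and prc1a at 1.06. The plk3 call was also lost with values before Lowess (0.56, adjusted p = 0.293), with only the 2 groups in the fit (0.89, adjusted p = 0.0518), with a 2-fold minimum, without E2+ICI replicate 1 (0.81, adjusted p = 0.0821) and without E2+ICI replicate 3 (0.84, adjusted p = 0.0892). The count of 2 calls for E2+ICI against E2 became 6 with quantile normalization. It was 0 without any 1 of the E2 arrays or without E2+ICI replicate 1 or 2, 1 without control replicate 1, 2 or 3, and 4 without control replicate 4, the controls bearing on it through the shared estimate of spread.

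How much of the E2 change was missing in fish that also received ICI was expressed as a percentage of the log2 difference between the E2 and control means, for the 7 probes called in E2 fish. It was largest for plk3 at 50.9%, followed by kif23 AF139990 at 44.1% and anapc10 at 43.1%. It was 28.4% for prc1a, 24.6% for aspm BG303443, 23.5% for birc5b and 10.3% for kif23 AW171210. This order depends on the size of the E2 change, which was 6.61 for aspm BG303443, 4.81 for birc5b and 1.82 for plk3. The log2 fold changes of E2+ICI against E2 were -1.63, -1.13 and -0.93 for the same probes. The shares of aspm BG303443 and birc5b also rest on their very low control ratios. The single fish also differed. Over the 7 probes E2+ICI replicate 2 gave 38.3% to 69.7%, replicate 1 gave -3.3% to 52.9% and replicate 3 gave -9.2% to 45.2%, where a negative value means a fish above the E2 mean. Replicate 2 was the lowest E2+ICI fish in 7 of the 8 member probes and replicate 3 the highest in 7. The median over the 7 probes was 28.4%, and it was 16.2% without E2+ICI replicate 2, 44.5% with arrays scaled to equal spread and 64.7% with quantile normalization, where the single probes ran from 21.1% (kif23 AW171210) to 105.1% (plk3). Without E2+ICI replicate 2, aspm BG303443 stood at 16.2%, prc1a at 13.6% and kif23 AW171210 at -6.3%. The value of kif23 AW171210 was 17.1% without E2+ICI replicate 1, 20.0% without E2+ICI replicate 3 and 5.1% without E2 replicate 1. These percentages carry no test, and they share the E2 and control arrays.

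**Figure D4:**
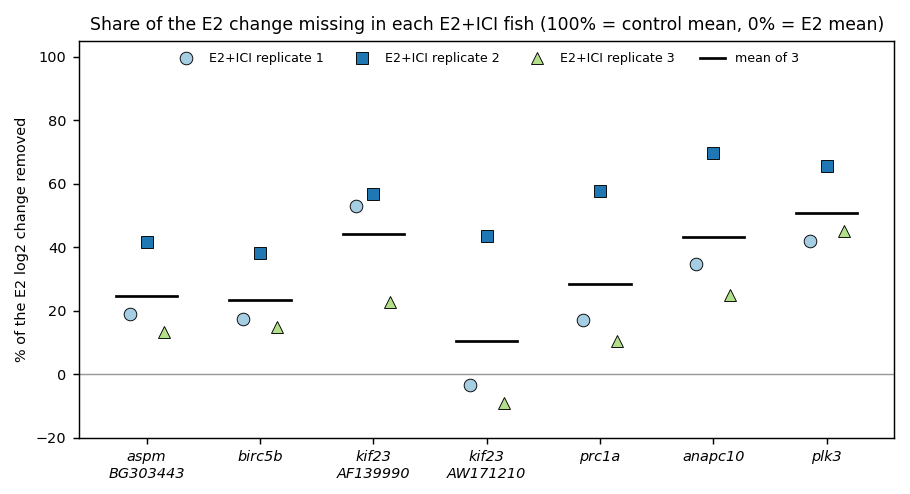
Percentage of the E2 log2 change that was missing in each E2+ICI fish for the 7 member probes called in E2 against control, where 100% is the mean of the control fish and 0% the mean of the E2 fish. Lines are the mean of the 3 fish, from 10.3% to 50.9%. E2+ICI replicate 2 (squares) is the highest fish for every probe.

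The rest of the mitotic machinery was read from a list of 124 other genes, of which 54 had a probe with a single symbol and 56 of their 57 probes were tested. Like the members, this list was chosen with earlier results of these arrays known, so its counts are descriptions. For E2 against control 37 of these 56 probes were called higher and 3 lower, where 19.2% of all probes were called higher and 16.5% lower. Their median log2 fold change was 0.96, and that of all probes was -0.07. In E2+ICI against control, 22 were called higher and 0 lower, where 8.92% of all probes were called higher and 3.04% lower, with a median of 0.54 against 0.01 over all probes. With quantile normalization this count was 8 and with equal spread 10. In E2+ICI against E2, 8 were called lower and 0 higher, where 2.54% of all probes were called lower and 2.88% higher, with a median of -0.33 against 0.03 over all probes. That count was 0 without E2 replicate 1, 1 without E2 replicate 2, E2 replicate 3 or E2+ICI replicate 2, 2 without E2+ICI replicate 1, 4 without control replicate 2 and 15 without control replicate 4.

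Among the kinases and cyclins that start mitosis, 7 of 8 probes rose in E2 fish, a count that, like those of the other roles, stands beside 19.2% of all probes. The mitotic cyclin gene ccnb1 averaged -0.47 ± 0.59 in E2+ICI, 0.53 ± 0.20 in E2 and -5.49 ± 0.66 in control fish (SD, n = 3, 3 and 4), a rise of 6.02 for E2 against control (adjusted p = 7.74e-07) and of 5.02 for E2+ICI against control (adjusted p = 1.00e-05). The phosphatase gene cdc25b, which activates the cyclin-dependent kinase, rose by 2.01 on 1 probe (AF212941, adjusted p = 0.000212), while its other probe was at -0.18 (BI885998, adjusted p = 0.494, with 2 E2+ICI fish measured). Both probes of the cyclin gene ccnb3 rose, by 1.64 (adjusted p = 0.000396) and by 1.42 (adjusted p = 0.000858).

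Of the genes of spindle microtubules and motors 10 of 13 probes rose in E2 fish. The kinesin gene kif18a, whose motor dampens chromosome movements, rose by 1.96 (adjusted p = 3.55e-06) and its log2 fold change between E2+ICI and E2 fish was -0.91 (adjusted p = 0.0131). The gene of the Ran exchange factor rcc1 rose by 2.62 (adjusted p = 4.65e-06) and hmmr, which encodes a spindle-associated hyaluronan receptor, rose by 2.39 (adjusted p = 1.72e-05). At the kinetochore and the checkpoint 11 of 14 probes rose, among them birc5a, ska1 (1.92, adjusted p = 5.97e-05) and mis12 (1.69, adjusted p = 0.000119), both of which encode kinetochore proteins.

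The central spindle and cytokinesis group, to which kif23 and prc1a belong by role, was mixed, with 4 of its 10 other probes higher (19.2% of all probes) and 3 lower (16.5% of all probes) in E2 fish and a median of 0.32. The RhoA activator gene ect2 rose by 2.19 (adjusted p = 8.27e-05), the furrow scaffold gene anln by 1.85 (adjusted p = 0.000158) and the kinesin gene kif14 by 1.36 (adjusted p = 0.00012). The 3 lower probes were those of the GTPase gene rhoab, the septin gene septin7a and pdcd6ip, which encodes an adaptor of membrane scission. They were at -0.94 (adjusted p = 0.00464), -0.76 (adjusted p = 0.0123) and -0.73 (adjusted p = 0.0292). The septin7a call was lost without E2 replicate 1 (adjusted p = 0.0616). The pdcd6ip call was lost without E2 replicate 1, 2 or 3 (adjusted p = 0.0705, 0.0941 and 0.0651) and without control replicate 1 or 2 (adjusted p = 0.0681 and 0.0524).

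In the group of the anaphase promoting complex and cohesin release 3 of 7 probes rose in E2 fish. They were fbxo5 (2.82, adjusted p = 1.39e-05), which encodes an inhibitor of the complex, ube2s (1.77, adjusted p = 3.81e-05), which encodes a ubiquitin-conjugating enzyme that works with it, and the cohesin subunit gene stag1b (0.55, adjusted p = 0.0459, with 2 E2 fish measured). The other subunit genes of the complex with a probe, anapc15 and anapc16, were at 0.42 (adjusted p = 0.12) and -0.21 (adjusted p = 0.355). Of the condensin group 1 of 3 probes rose, the condensin subunit gene ncapg by 1.73 (adjusted p = 0.000138).

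**Figure D5:**
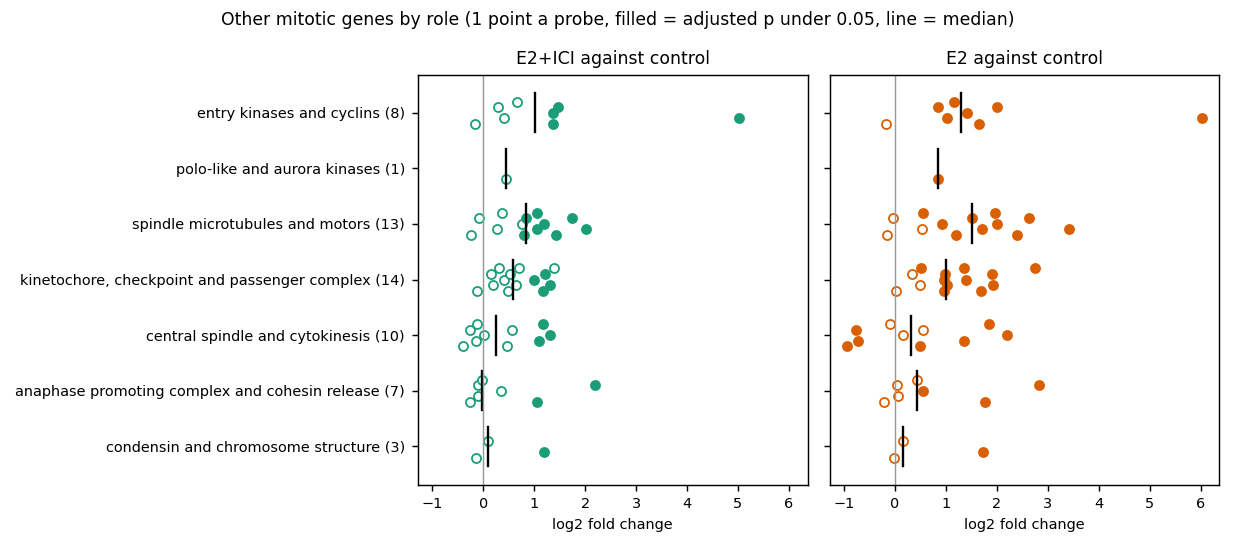
Log2 fold change of 56 probes of other mitotic genes by role, for E2+ICI against control (left) and E2 against control (right), with the number of probes in parentheses. Filled points have an adjusted p under 0.05 and lines are the medians of the groups. Most filled points lie above 0, and the 3 filled points below 0 belong to the cytokinesis group in E2 against control.

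Probes of oocyte and germ cell genes were mostly higher in the same fish as the member genes. Against control, 0 to 2 of the muscle and of the testis probes were called, and liver probes were mostly lower where called. Of all probes, 8.92% were called higher and 3.04% lower in E2+ICI against control, and 19.2% higher and 16.5% lower in E2 against control. Of 12 tested probes of an oocyte list, 10 were called higher in E2+ICI fish, and 10 were called higher and 1 lower in E2 fish. The higher ones include the protease gene nots (2.29 in E2+ICI and 2.94 in E2 against control). Whether nots belongs on an oocyte list was not checked, and its control mean was -2.23, against -5.38 for zp3b. The lower one was ybx1 (-0.73), and cnot2 was not called. The tissue in which the listed genes were expressed was not measured. The median of the list ran from -1.19 to -0.02 in E2+ICI, from 0.26 to 0.41 in E2 and from -5.35 to -4.19 in control fish. The egg coat gene zp3b averaged -0.75 ± 0.49 in E2+ICI, 0.19 ± 0.18 in E2 and -5.38 ± 0.35 in control fish (SD, n = 3, 3 and 4). The order of the E2+ICI fish was the same in this list as in the median of the member probes, with replicate 2 lowest (-1.19 for the list and -1.10 for the members) and replicate 3 highest (-0.02 and -0.10). Medians of the germ cell, muscle and mitotic lists had the same lowest and highest fish, and those of the liver and testis lists did not. Replicate 2 also had the largest SD over all probes (0.561) and the most missing values (912) of the E2+ICI arrays. Of 5 germ cell probes 3 were higher and 1 lower in E2+ICI fish, and 4 were higher in E2 fish. Those of dazl, nanos3 and 1 probe of ddx4 were higher in both. The other ddx4 probe was not called in E2+ICI fish (0.79, adjusted p = 0.167). The lower probe was nanos1 (-0.68 in E2+ICI, adjusted p = 0.0248), which was not called in E2 fish (-0.33, adjusted p = 0.159). Of 3 testis probes 0 were higher in E2+ICI and 1 in E2 fish. Of 12 skeletal muscle probes 2 were higher in E2+ICI and 1 in E2 fish. Of 7 liver probes 2 were lower in E2+ICI fish, and 4 were lower and 1 higher in E2 fish. Between E2+ICI and E2 fish 3 liver probes were higher and 0 lower, and 1 muscle probe was higher. There, 2 oocyte probes were lower and no germ cell or testis probe was called. Of all probes, 2.88% were called higher and 2.54% lower in that comparison. The study describes all fish as males, while the sample titles give no sex. The part of oocytes or germ cells in the values of the member genes was not tested.

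Over the 10 arrays, the probes with 1 symbol whose values were most like those of a member were found by Pearson's correlation among 5283 or 5284 probes of other genes with a value on all arrays. For birc5b they were zar1l, zgc:171776 and si:dkey-19b23.8 (r = 0.998, 0.998 and 0.997), and zar1l is on the oocyte list. For prc1a they were gjc4b, zgc:55943 and the cyclin gene ccne1 (r = 0.993, 0.992 and 0.991). For aspm BG303443 they were org, caprin2 and zgc:175136 (r = 0.992, 0.991 and 0.991), and for anapc10 they were eif4e1b, inka1b and atxn7l2a (r = 0.992, 0.991 and 0.990). The kif23 probes had different neighbours, gpt2, rbm4.1 and celf1 for AF139990 (r = 0.990, 0.985 and 0.985) and larp6b, usp44 and tox4a for AW171210 (r = 0.992, 0.988 and 0.987). For plk3 they were xbp1, abhd17c and sephs1 (r = 0.989, 0.987 and 0.986). The aspm AI626804 probe had lower values, with ptpn2a, mlst8 and fgf3 (r = 0.907, 0.886 and 0.884). Such correlations over arrays in 3 groups describe mainly the differences between the groups, and they carry no test.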

How the data were processed

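The authors hybridised Cy3-labelled cDNA of single fish and Cy5-labelled reference cDNA to spotted oligonucleotide arrays, subtracted the local background in GenePix, chose arrays by scatter plot and applied Lowess normalization. The deposited values are log2 ratios, with a second deposited table of log2 ratios before Lowess. Versions are not given in the sources used here. The tables analysed give ratios without intensities, so that precision was judged from the spread between arrays and not from signal strength. The array annotation gave 1 symbol to 6088 probes, several to 75 and none to 10253.

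limma 3.58.1 (R 4.3.3) was fitted to all 10 arrays with 3 group means, for the 16208 probes that lacked no more than 6 values and had 2 or more in every group. Tests were two-sided, and p-values were adjusted within each comparison by the Benjamini-Hochberg method. Probe pairs were compared by exact permutation over fish. The 2-class SAM of the methods was coded anew with all 35 permutations, and probes were called at a q-value under 0.05. The 3-class SAM that the study ran first was not repeated, so the SAM counts are not those of the study's procedure. Other analyses used Python 3.11.15, numpy 2.4.6, pandas 2.3.3 and matplotlib 3.10.9. Both tests were checked on simulated arrays in which a known set of probes had been changed. The members and lists were chosen with earlier results of these arrays known. Every member probe was named, and from each role group of the mitotic list up to 3 called probes with the smallest adjusted p for E2 against control, every called probe that fell, and paralogs of the members. The anapc15, anapc16, second cdc25b and second ccnb3 probes were chosen after their values were seen. Alternatives were other scalings, filters, weights, priors and thresholds, a replicate block, SAM and leaving out each array. Promoter motifs and sequences were not analysed here, as no sequence table was used.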

Additional observations from a re-analysis of the deposited data

How the results depend on the processing

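For E2 against control, all 8 member probes kept their side of the threshold under every alternative and without each array. Of the mitotic list 37 probes were called higher there, and 34 to 38 without single arrays. That count was 33 with quantile normalization, 27 with a 2-fold minimum and 39 with array weights. Between E2+ICI and control fish, the 7 member calls became 2 with quantile normalization and 4 with equal spread (6 to 7 without single arrays), and the 22 calls of the mitotic list became 8 and 10 (19 to 24). There, plk3 turned to -0.07 with quantile normalization, and its call was lost with equal spread, before Lowess, with only the 2 groups compared and with a 2-fold minimum. Between E2+ICI and E2 fish, the 2 member calls became 6 with quantile normalization or equal spread, 5 with array weights, with only the 2 groups compared or with a replicate block, 4 with complete probes, 1 with values before Lowess and 0 with a 2-fold minimum (0 to 4 without single arrays). The 8 calls of the mitotic list became 21 (quantile), 20 (equal spread), 19 (array weights), 17 (only the 2 groups), 2 (before Lowess) and 1 (2-fold minimum), with 0 to 15 without single arrays. Deviations of same-numbered fish correlated at -0.232 to 0.18, and those of different-numbered fish at -0.277 to 0.328. The titles name nothing but the number that the fish of a replicate block share, and a shared batch was not tested.

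Over all probes, 1939 were called between E2+ICI and control fish, 879 between E2+ICI and E2 fish and 5773 between E2 and control fish. A 2-fold minimum gave 892, 408 and 2438 of these calls. Between E2+ICI and control fish quantile normalization gave 1027, equal spread 1053, array weights 4097 and only the 2 groups 1214. The same settings gave 3937, 3849, 4510 and 3314 between E2+ICI and E2 fish, with 386 before Lowess and 2090 with the replicate block. Without single arrays the counts ran from 897 (without E2+ICI replicate 3) to 2444 for E2+ICI and control fish, from 162 (without E2+ICI replicate 2) to 2696 (without control replicate 4) for E2+ICI and E2 fish, and from 4237 to 7135 for E2 and control fish. SAM called 2243 probes for E2+ICI and control fish and 7062 for E2 and control fish. The median share of the E2 change missing in E2+ICI fish was 64.7% with quantile normalization, 44.5% with equal spread and 16.2% to 37.4% without single arrays, and that of kif23 AW171210 was -6.3% without E2+ICI replicate 2. Without single arrays, the aspm probes differed by 4.19 to 5.26 in the change between E2+ICI and control fish, by -2.26 to -1.35 between E2+ICI and E2 fish and by 6.10 to 6.99 between E2 and control fish. The kif23 probes differed by -0.79 to -0.37, -0.92 to -0.50 and -0.02 to 0.26 in the same changes. With quantile normalization and with equal spread, the aspm difference between E2+ICI and control fish was 2.31 and 2.96 and the kif23 difference between E2 and control fish 0.57 and 0.45, and the kif23 difference between E2+ICI and E2 fish was -1.09 with quantile normalization. The causes of these shifts were not tested.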
